A study of Arabidopsis thaliana with 30 samples.

Results

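The nuclear genes of the photosynthetic light reactions comprised 51 loci of the 38194 in the deposited table, listed by locus identity with no threshold on measured values, though with earlier results of these data known. They were the genes for the light-harvesting proteins LHCB1 to LHCB7 and LHCA1 to LHCA6, the nuclear subunits of photosystem I (PSI) and photosystem II (PSII), plastocyanin (PETE1, PETE2), the Rieske protein PETC, ferredoxin FD2, the ferredoxin-NADP reductases FNR1 and FNR2, and the ATP synthase subunits ATPC1 and ATPD. By role, 21 were antenna genes (15 of PSII and 6 of PSI) and 30 are called core genes here (12 PSI subunits, 10 PSII subunits and 8 carriers and ATP synthase subunits). All 51 names were matched to the RefSeq annotation of Arabidopsis thaliana. All 51 passed the filter on low counts, as did 21052 loci in all.

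RNA came from detached leaves 1 and 2 of Columbia-0 seedlings grown on soil for 10 d in continuous light, with about 18 to 20 leaves pooled in a sample. All leaves floated in salts with 5% glucose and 0.2% dimethyl sulfoxide. Stimulus leaves also received 20 µM bikinin, an inhibitor of GSK3-like kinases that activates brassinosteroid responses, the cytokinin kinetin at 0.5 µg/mL and the synthetic auxin 2,4-Dichlorophenoxyacetic acid at 2.5 µg/mL, while mock leaves received none of these 3 agents. Each treatment was sampled at 6, 7, 8, 9 and 10 h with 3 replicates, giving 10 groups and 30 libraries. A mixture of hormone agonists of this kind turns leaf cells toward vascular fates, and the comparisons ask how the light-reaction genes respond to it and drift over time in buffer.

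Light-harvesting proteins bind chlorophyll and pass excitation energy to the reaction centres of PSII and PSI. PSII takes electrons from water, and these pass through the cytochrome b6f complex and plastocyanin to PSI, then to ferredoxin and NADPH, while the ATP synthase uses the proton gradient. The reaction-centre proteins are encoded in the plastid, whereas the antenna, the oxygen-evolving proteins and many small subunits are encoded in the nucleus, where their mRNAs are among the most abundant of a green leaf and respond to light, sugar and hormones.

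Libraries held between 14981271 and 22729166 counts. The columns of mock replicate 3 at 6 h and at 7 h were identical at every locus, so the 30 libraries hold 29 distinct ones, 14 of them mock. In every mean, SD, median and range of levels and shares, these columns were counted once. The main fits, with their fold changes, and the pairs of libraries of 1 time and number used both. It is not known which of both labels is right. Replicate 3 stood apart from replicates 1 and 2 in both treatments. In mock, plastid-encoded loci took 0.556 to 0.637% of the counts in replicate 3 and 1.94 to 3.09% in replicates 1 and 2, and nuclear rRNA and tRNA loci took 0.0334 to 0.0661% against 0.313 to 0.831%. The stimulus libraries were split in the same way, with plastid shares of 0.621 to 0.872% against 1.37 to 3.07%. The part of these shares in the results below was not tested. The 51 genes took 3.00 to 3.47% of all counts in mock replicate 3, 1.10 to 2.44% in the other mock libraries and 0.910 to 1.93% in the stimulus libraries.

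Upstream sequences are shown for 3 LHCII genes: LHCB2.3, the member with the largest fall, and LHCB1.1 and LHCB1.3, neighbours read in opposite directions whose levels in mock replicate 3 stood furthest above the other mock libraries within the LHCB1 family. LHCB1.1 lies at chr1:10474656-10475969 on the minus strand, and LHCB1.3 at chr1:10477885-10479114 on the plus strand. LHCB1.2 lies at chr1:10472280-10473502 on the minus strand, next to LHCB1.1. Each sequence holds the 250 bases before the annotated start of the gene in RefSeq TAIR10.1, in the direction of transcription, and none overlaps another annotated locus. Capitals mark the motifs CACGTG (the G-box) and CCAATC, which holds a CCAAT box, and lower case all other bases. CCAAT without the final C was not searched, and stands unmarked in the windows of LHCB2.3 and LHCB1.1. The windows are chr3:10255656-10255905 on the plus strand, chr1:10475970-10476219 on the minus strand and chr1:10477635-10477884 on the plus strand.
LHCB2.3: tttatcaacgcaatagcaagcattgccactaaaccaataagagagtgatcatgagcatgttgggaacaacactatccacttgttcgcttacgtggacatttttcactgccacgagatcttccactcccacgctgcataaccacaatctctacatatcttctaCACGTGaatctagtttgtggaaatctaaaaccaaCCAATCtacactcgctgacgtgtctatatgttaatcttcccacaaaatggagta
LHCB1.1: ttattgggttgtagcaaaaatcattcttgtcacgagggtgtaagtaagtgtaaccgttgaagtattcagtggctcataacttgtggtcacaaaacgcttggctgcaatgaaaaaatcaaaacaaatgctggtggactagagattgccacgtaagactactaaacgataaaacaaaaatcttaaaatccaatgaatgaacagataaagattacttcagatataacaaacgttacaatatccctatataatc
LHCB1.3: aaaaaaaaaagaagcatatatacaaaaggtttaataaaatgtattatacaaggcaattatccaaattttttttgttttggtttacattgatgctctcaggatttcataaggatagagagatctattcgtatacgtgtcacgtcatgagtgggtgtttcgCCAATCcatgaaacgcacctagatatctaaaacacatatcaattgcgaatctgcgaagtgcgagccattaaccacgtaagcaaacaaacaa
LHCB2.3 held a G-box starting 88 bases before the start and CCAATC at 54 bases, LHCB1.3 held CCAATC at 91 bases, and LHCB1.1 held none of the 6 motifs searched in this window.

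Levels per length in mock, in CPM (counts scaled to the library size) per kilobase of exon, were both highest and lowest in antenna genes. LHCB1.3 was highest at 3135 ± 1508 CPM per kb (SD, n = 14), followed by the PSII subunit PSBR at 1093 ± 322 and PSBO1, of the oxygen-evolving complex, at 819 ± 293. The ranges of 1 SD around neighbours in this order overlapped for all neighbours but LHCB1.3 and PSBR. Of the other LHCB1 genes, LHCB1.5 reached 656 ± 350, LHCB1.1 515 ± 522, LHCB1.2 439 ± 297 and LHCB1.4 50.7 ± 38.6 CPM per kb. The lowest members were LHCB4.3 at 20.1 ± 8.19, LHCB2.3 at 17.1 ± 15.4 and LHCB7, a rarely expressed relative of the antenna proteins, at 8.61 ± 1.03. The LHCB1 and LHCB2 genes are close relatives, so reads may be split among them and single values are uncertain. At most 19.1% of the 75-base words of any member also occurred elsewhere in the annotated transcripts (LHCB2.2), and 0.0% of those of LHCB2.3.

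All 51 genes had less RNA in stimulus than in mock leaves when the 5 times were averaged. Each passed the test (edgeR's quasi-likelihood test, Benjamini-Hochberg adjusted p under 0.05), with log2 fold changes from -3.17 (LHCB2.3) to -0.52 (LHCB7). Among all 21052 genes tested, 27.0% were called lower. The median log2 fold change was -1.05 over the 21 antenna genes and -0.93 over the 30 core genes, against 0.02 over all genes tested. By role it was -1.23 for the PSII antenna, -1.04 for the PSI antenna, -0.85 for PSI core, -0.92 for PSII core and -0.94 for carriers and ATP synthase. In whole leaves, fewer mesophyll cells and less RNA per cell cannot be told apart.

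**Figure D1:**
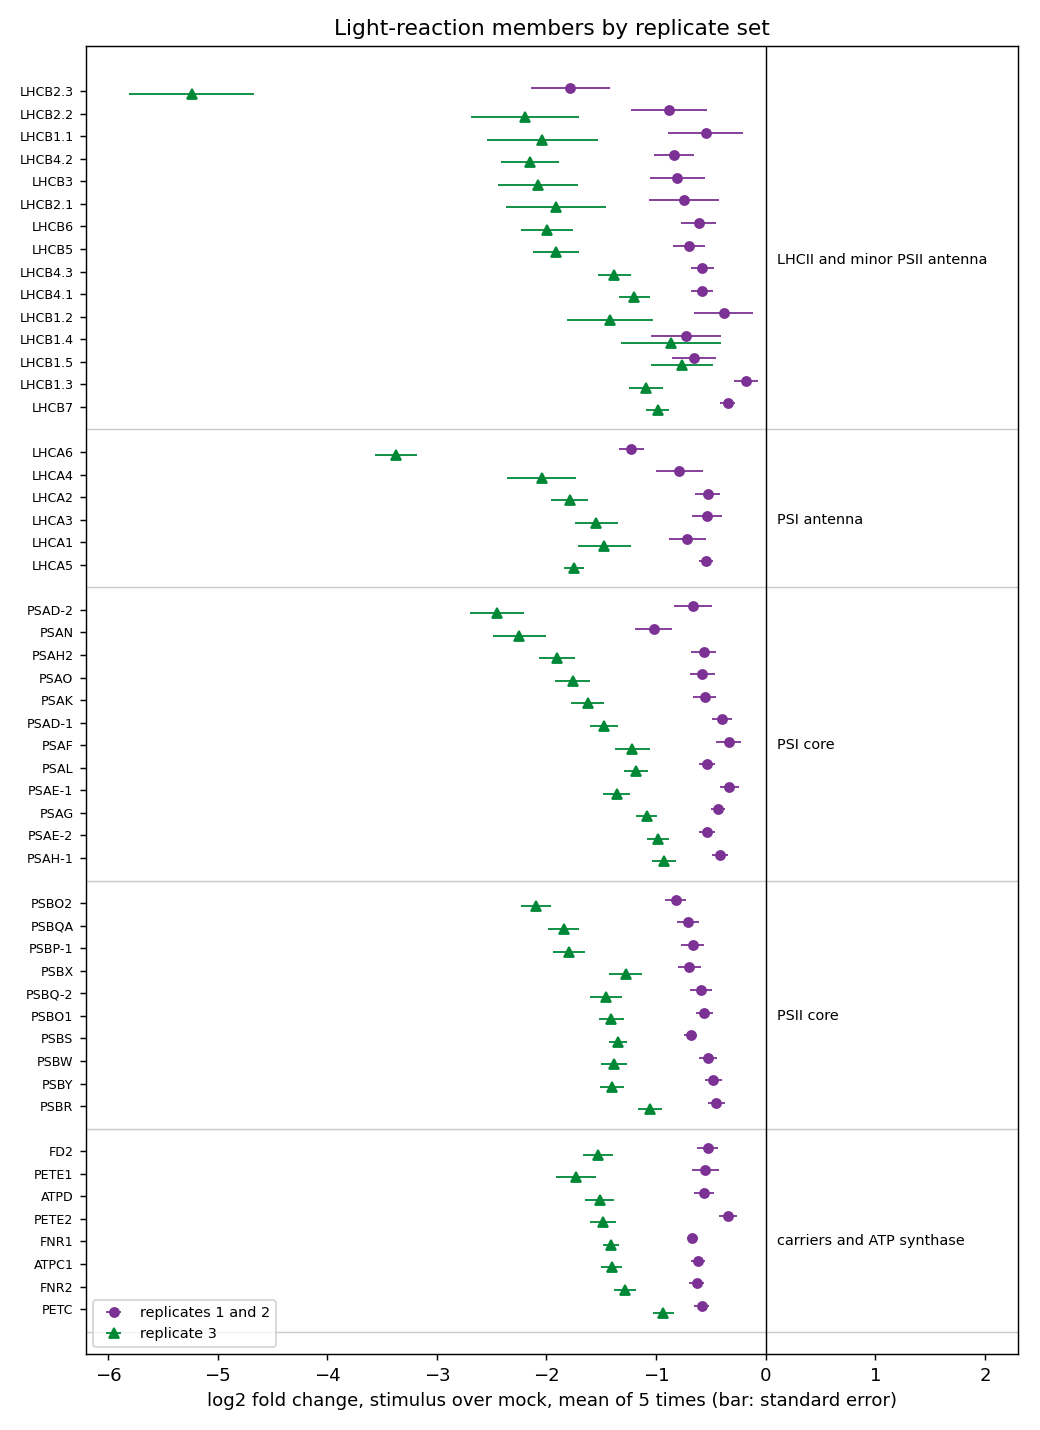
The log2 fold change of stimulus over mock, averaged over 5 times (horizontal axis), for each of the 51 genes by role, in replicates 1 and 2 (circles) and replicate 3 (triangles), with standard errors as bars. Every point lies below 0, LHCB2.3 in replicate 3 is lowest at -5.24, and LHCB1.4 and LHCB1.5 have nearly equal values in both sets.

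This test took the 5 times as separate samples of the treatment. With counts summed over the times, so that 3 mock and 3 stimulus totals were compared, 7 of the 51 genes passed (3.65% of 22217 genes tested were called lower) and 12 with the replicate number as a block (7.03%). The 7 were LHCB1.2, LHCB2.3, LHCA1, PSAE-2, PSBS, FNR1 and FNR2. Without both identical columns 47 passed (26.5% of all genes), all but LHCB1.1, LHCB1.3, LHCB2.1 and PSAF.

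Of the PSII antenna genes, LHCB2.3 (AT3G27690) fell most. It was at 4.38, 16.9 and 74.5 CPM (lowest, median and highest of 14 mock libraries) and at 0.380, 2.32 and 10.7 CPM in the 15 stimulus libraries, and the ranges overlapped. In replicate 3 mock held 37.8, 33.5, 61.4 and 74.5 CPM at 6 (and 7), 8, 9 and 10 h, while stimulus held 1.67, 0.860, 3.86, 1.33 and 0.380 CPM at 6 to 10 h. Every replicate 3 stimulus library was therefore below every mock library of any replicate. The average log2 fold change was -3.17 ± 0.48 (SE; edgeR adjusted p = 8.27e-06). Its 2 relatives of the same LHCII subunit moved less, at -1.69 ± 0.55 for LHCB2.2 (AT2G05070; edgeR adjusted p = 0.0117) and -1.50 ± 0.56 for LHCB2.1 (AT2G05100; edgeR adjusted p = 0.026). Leaving out mock replicate 3 at 9 or 10 h ended the call of LHCB2.2, at -1.05 and -1.06 (edgeR adjusted p = 0.0645 and 0.063), of LHCB2.1, at -0.90 and -0.92 (0.13 and 0.124), and of LHCB1.1, at -0.85 and -0.93 (0.138 and 0.117). The calls of LHCB2.1 and LHCB1.1 were also lost without mock replicate 3 at 8 h, at -1.21 for both (0.0656 and 0.063). LHCB2.3 shares 40.6% of its exonic length with a locus on the opposite strand, AT3G27700, which held 34.7 CPM in mock and 39.1 CPM in stimulus.

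LHCB1 encodes the main subunit of LHCII. The most abundant copy, LHCB1.3 (AT1G29930), moved least of the family. It held 1597, 3791 and 6533 CPM in mock and 1552, 2572 and 4048 CPM in stimulus (lowest, median and highest), with an average log2 fold change of -0.60 ± 0.21 (edgeR adjusted p = 0.0173). In stimulus replicate 3 it held 4048, 3098, 3227, 2569 and 2411 CPM at 6 to 10 h, against 6533, 6324, 6232 and 5756 CPM in mock replicate 3. In replicates 1 and 2 the same gene held 3943 and 3638 CPM in mock at 6 h and 1611 and 1798 CPM at 10 h, close to 1722 and 1589 CPM in stimulus at 10 h. LHCB1.1 (AT1G29920) had -1.51 ± 0.56 (edgeR adjusted p = 0.0247), LHCB1.2 -0.79 ± 0.25 (0.0111), LHCB1.5 -0.70 ± 0.19 (0.00307) and LHCB1.4 -0.78 ± 0.33 (0.0473). With the reads of the LHCB1 loci summed, which removes the split among copies, the value was -0.72 ± 0.23 (0.0107), and with those of the LHCB2 loci summed -1.67 ± 0.54 (0.0116). The call of LHCB1.4 was lost in 17 of the 30 fits that left out 1 library, and its value was nearest to 0 without mock replicate 3 at 10 h (-0.41, edgeR adjusted p = 0.208).

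The remaining PSII antenna genes all fell. LHCB3, the third LHCII subunit, had a log2 fold change of -1.50 ± 0.38 and the minor antenna gene LHCB4.2 (CP29) of -1.51 ± 0.31. LHCB5 (CP26) had -1.23 ± 0.22, LHCB6 (CP24) -1.25 ± 0.25 and LHCB4.1 -0.86 ± 0.18. LHCB4.3 (AT2G40100) held 14.5, 26.4 and 47.6 CPM in mock and 9.78, 16.5 and 22.3 CPM in stimulus, with -0.93 ± 0.18. LHCB7 (AT1G76570) had the smallest fall of all 51 genes: it held 8.88, 10.3 and 12.6 CPM in mock and 4.02, 7.95 and 10.2 CPM in stimulus, with -0.52 ± 0.12 (edgeR adjusted p = 0.00106). In LHCB7 the mock libraries of replicate 3, at 8.90 to 10.3 CPM, lay within those of replicates 1 and 2, and stimulus replicate 3 was lowest, at 4.02 to 5.60 CPM.

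The PSI antenna is a belt of LHCA1 to LHCA4, while LHCA5 and LHCA6 join PSI to the NDH complex of cyclic electron flow. LHCA6 (AT1G19150) fell most of these, from 23.5, 38.8 and 53.2 CPM in mock to 3.90, 12.4 and 21.7 CPM in stimulus. The ranges did not overlap, and the stimulus libraries of replicate 3 were lowest, at 3.93, 3.90, 5.44, 4.53 and 4.40 CPM for 6 to 10 h. Its log2 fold change was -1.76 ± 0.25 (edgeR adjusted p = 3.29e-06). LHCA5 (AT1G45474) also had separate ranges, 47.8, 53.2 and 76.7 CPM against 19.8, 30.7 and 43.9 CPM, with -0.92 ± 0.13 (edgeR adjusted p = 4.88e-06). LHCA4 had the second largest fall, -1.37 ± 0.28, with 198, 708 and 1311 CPM in mock and 141, 275 and 623 CPM in stimulus. LHCA1, LHCA2 and LHCA3 lay between -1.05 and -0.98. For all 6 genes stimulus was below mock in each of the 15 pairs of libraries with the same time and number. This held for 39 of the 51 genes, and the share over all genes was not computed. The replicate 3 pairs at 6 and 7 h share 1 mock column.

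Among PSI core genes, PSAD-2 and PSAN fell most and PSAH-1 and PSAE-2 least. PSAD, with PSAE, forms the docking site of ferredoxin. PSAD-2 (AT1G03130) held 11.8, 50.3 and 178 CPM in mock and 11.4, 22.3 and 47.3 CPM in stimulus, with a log2 fold change of -1.72 ± 0.41 (edgeR adjusted p = 0.00114). The other copy, PSAD-1, had -0.89 ± 0.21. In mock replicate 3 PSAD-2 held 163, 152, 178 and 152 CPM, against 11.8 to 62.4 CPM in the other mock libraries, and these ranges did not overlap. PSAN (AT5G64040), a lumenal subunit near the plastocyanin site, had -1.67 ± 0.32 (edgeR adjusted p = 0.000122), with 24.6, 71.3 and 208 CPM in mock and 15.2, 28.3 and 48.6 CPM in stimulus. PSAE-2 had -0.68 ± 0.08 (edgeR adjusted p = 1.47e-07) and PSAH-1, at the docking site of LHCII, -0.61 ± 0.10 (edgeR adjusted p = 2.21e-05). These smallest falls had small standard errors: PSAE-2 held 99.7 to 175 CPM in mock and 63.6 to 119 CPM in stimulus. The call of PSAF was lost without mock replicate 3 at 8, 9 or 10 h (edgeR adjusted p = 0.0501, 0.0708 and 0.0679). PSAH2, PSAK, PSAO, PSAL, PSAG, PSAF, PSAE-1 and PSAD-1 lay between -1.22 and -0.71.

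In the PSII core, the oxygen-evolving proteins PSBO, PSBP and PSBQ stabilise the manganese cluster. PSBO2 (AT3G50820) fell most, from 131, 185 and 450 CPM in mock to 67.4, 91.5 and 125 CPM in stimulus, ranges that did not overlap, with a log2 fold change of -1.37 ± 0.20 (edgeR adjusted p = 4.6e-06). The main copy PSBO1 had -0.91 ± 0.15. PSBQA followed with -1.28 ± 0.26 (edgeR adjusted p = 0.000219) and held 119, 200.3 and 547 CPM in mock and 73.6, 120.2 and 187 CPM in stimulus. PSBP-1 had -1.18 ± 0.21 and PSBQ-2 -0.92 ± 0.14. The small subunits PSBY, at -0.90 ± 0.19 (edgeR adjusted p = 0.000354), and PSBR, at -0.70 ± 0.13 (edgeR adjusted p = 0.000129), fell least. PSBR held 586, 789 and 1280.1 CPM in mock and 366, 526 and 719 CPM in stimulus. PSBS (AT1G44575), the sensor of lumen acidity for photoprotective quenching, had one of the most even responses: 679.6, 809 and 1078 CPM in mock, 350, 439 and 594 CPM in stimulus, with no overlap and -0.91 ± 0.09 (edgeR adjusted p = 1.1e-08).

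Carriers and ATP synthase genes moved within a narrow range, from -1.11 to -0.74. FD2 (AT1G60950), the main leaf ferredoxin, held 51.7, 91.1 and 351 CPM in mock and 42.6, 63.3 and 117 CPM in stimulus, with -1.11 ± 0.33 (edgeR adjusted p = 0.00718). The mock libraries of replicate 3 held 281, 290.4, 351 and 297 CPM, against 51.7 to 108 CPM in the rest. PETE1, the minor plastocyanin gene, had -1.07 ± 0.21 (edgeR adjusted p = 0.000172), and PETE2, the major one, -0.95 ± 0.28. FNR2 had -0.86 ± 0.09 (edgeR adjusted p = 9.07e-08) and PETC -0.74 ± 0.17 (edgeR adjusted p = 0.000711). FNR1 had -0.93 ± 0.09, with 408 to 684 CPM in mock and 199 to 383 CPM in stimulus, again without overlap. ATPC1 and ATPD, the gamma and delta subunits of the ATP synthase, had -0.93 ± 0.13 and -1.07 ± 0.27.

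Separation of the treatments over all libraries was thus seen in 5 of 51 genes (LHCA5, LHCA6, PSBO2, PSBS and FNR1), against 3.97% of all genes tested. Within replicate 3 every stimulus library was below every mock library for 49 of the 51 genes, all but LHCB1.4 and LHCB1.5 (25.1% of all genes). The same was true of 6 genes in replicate 1 (13.9% of all genes) and 8 in replicate 2 (14.4%).

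Taken hour by hour, no time had all 51 genes past the threshold. At 6 h none passed, against 3.84% of all genes called lower, and 14 of the 51 (27.5%) had an unadjusted p under 0.05, near the share of all genes (26.0%). At 7 h 14 fell (8.14%), at 8 h 6 (6.39%), at 9 h 13 (8.55%) and at 10 h 21 (9.34%). Over the 5 hours, 29 genes passed at none, and 6 passed at 4: PSAE-2, PSBO2, PSBS, FNR1, FNR2 and ATPC1. DESeq2 called 1 at 6 h (5.95% of all genes), 22 at 7 h (9.94%), 9 at 8 h (8.62%), 23 at 9 h (10.5%) and 32 at 10 h (11.3%). With only the 6 libraries of each time, edgeR called 0 at 6 h (0.394%), 17 at 7 h (4.1%), 0 at 8 h (1.54%), 3 at 9 h (3.47%) and 6 at 10 h (4.5%). A filter of 1 CPM in 3 libraries gave 1 at 6 h (4.22%), and leaving out the identical columns gave 7 at 7 h (5.25%). LHCB2.3, with log2 fold changes of -2.34, -3.68, -1.90, -3.89 and -4.06 at 6 to 10 h, passed at 7, 9 and 10 h.

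With the replicate number as a block, the counts were 7 at 6 h (13.4% of all genes), 46 at 7 h (18.4%), 26 at 8 h (16.0%), 38 at 9 h (18.0%) and 43 at 10 h (18.6%). In replicates 1 and 2 alone, 18 genes fell at 6 h (13.2%), 48 at 7 h (17.7%), 35 at 8 h (16.8%), 30 at 9 h (18.3%) and 37 at 10 h (19.5%). Leaving out 1 library moved the counts without a block to 4 to 27 at 7 h, 2 to 8 at 8 h, 3 to 21 at 9 h and 3 to 32 at 10 h.

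Over all replicates, the median change of the antenna was larger than that of the core at every hour but 8 h. The median log2 fold changes of the 21 antenna genes were -0.95, -1.39, -0.76, -1.20 and -1.31 at 6, 7, 8, 9 and 10 h, and those of the 30 core genes -0.67, -0.996, -0.90, -1.05 and -1.08. At 8 h the median was -0.30 in the 8 LHCB1 and LHCB2 genes and -0.83 in the 13 other antenna genes, both smaller falls than in the core. At the other times it was -1.12, -1.58, -1.15 and -1.77 in the former and -0.94, -1.32, -1.20 and -1.31 in the latter. The order did not hold in every replicate: in pairs of libraries with the same number, the antenna and core medians at 9 h were -0.38 and -0.41 in replicate 1, -0.52 and -0.61 in replicate 2, and -1.92 and -1.59 in replicate 3. The antenna also had the smaller fall at 10 h in replicate 1 (-0.53 against -0.56), at 7 h in replicate 2 (-0.996 against -1.06) and at 8 h in all 3 replicates. LHCB1.4 was the 1 gene with a positive value at any hour, 0.01 at 8 h (edgeR adjusted p = 0.996). In such pairs the median log2 ratio of the 8 LHCB1 and LHCB2 genes at 8 h was -0.38, -0.11 and -0.49 in replicates 1, 2 and 3. No test of antenna against core was made, since genes are not replicates.

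**Figure D2:**
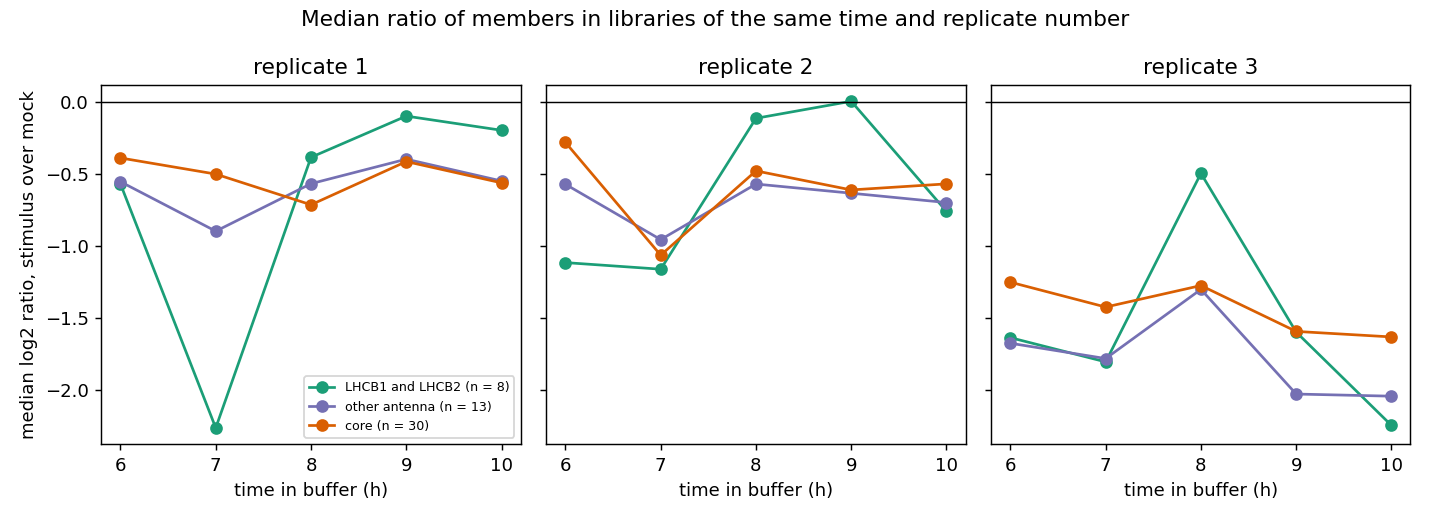
The median log2 ratio of stimulus over mock (vertical axis) at each time in hours (horizontal axis), in libraries of the same replicate number (1 panel each), for the 8 LHCB1 and LHCB2 genes, the 13 other antenna genes and the 30 core genes. Core genes lie from -1.63 to -1.25 in replicate 3 and from -1.06 to -0.28 in replicates 1 and 2, and the LHCB1 and LHCB2 line is nearest to 0 at 9 h in replicates 1 and 2 and at 8 h in replicate 3. The 7 h mock column of replicate 3 is identical with that of 6 h.

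The hours also differed in where mock itself stood. In mock the summed level of the 21 antenna genes at 6, 7, 8, 9 and 10 h was 13458, 15287, 6790.0, 4908 and 4270.1 CPM in replicate 1 and 11694, 11708, 8169, 4333 and 4858 CPM in replicate 2. In mock replicate 3 it was 18736, 16026, 19791 and 18943 CPM at 6 (and 7), 8, 9 and 10 h, with no fall. Summed core levels in mock went from 10692 and 9569 CPM at 6 h to 6949.7 and 7254 CPM at 10 h in replicates 1 and 2, and from 17949.5 to 17644 CPM in replicate 3. In stimulus leaves, antenna levels went from 10507, 8054 and 8299.6 CPM at 6 h to 3760.5, 3501 and 5401 CPM at 10 h in replicates 1, 2 and 3.

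**Figure D3:**
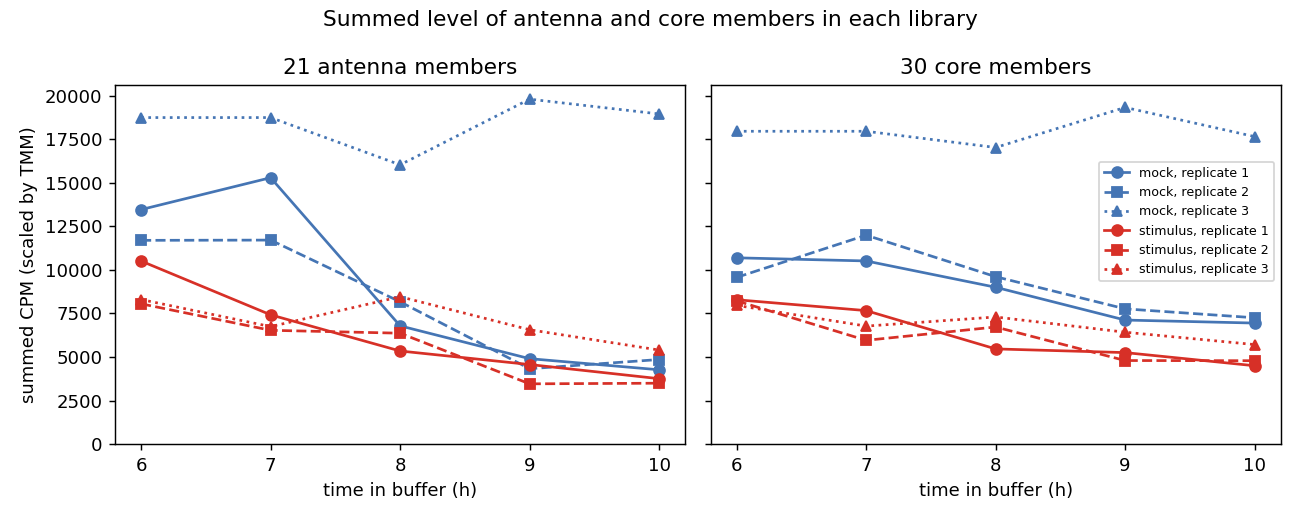
The summed CPM (vertical axis) of the 21 antenna genes (left) and 30 core genes (right) in each library against time in hours, mock in blue and stimulus in red, with 1 line per replicate number. Mock replicate 3 stays at 16026 CPM or above in the antenna, while mock replicates 1 and 2 drop from 11694 CPM or above at 6 h to 4858 CPM or below at 10 h. The mock replicate 3 points at 6 and 7 h are 1 identical column.

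When all replicates shared 1 trend, few slopes passed: none of the 51 genes fell per hour in mock (0.423% of all genes; 7, or 13.7%, at an unadjusted p under 0.05, against 8.78% of all genes), and 1, PSAE-2, fell in stimulus (0.214%). With a replicate block 6 fell in mock (1.89% of all genes) and 25 in stimulus (2.63%). The slopes of stimulus and mock differed in none (0.019% in either direction; 1 gene at an unadjusted p under 0.05, against 5.10% of all genes; 0 by DESeq2). In replicates 1 and 2 alone they differed in 4 genes (7.71%).

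Fitted by replicate set, a choice made after seeing the data, 45 of the 51 genes fell per hour in mock replicates 1 and 2 (13.0% of all genes) and none in mock replicate 3 (0.176%; 0 at an unadjusted p under 0.05, against 13.0% of all genes). The median slope in replicates 1 and 2 was -0.47 log2 per h in the antenna and -0.20 in the core, and in replicate 3 it was 0.04 and 0.00. The slope differed between the sets in 35 genes, all with a higher value in replicate 3 (4.57%), 18 of them antenna and 17 core. All 8 LHCB1 and LHCB2 genes were among them. LHCB1.4 had the steepest fall, from 140.1 and 127 CPM in mock at 6 h to 7.12 and 15.3 CPM at 10 h, a slope of -1.02 ± 0.09 log2 per h (edgeR adjusted p = 6.08e-08) against 0.04 ± 0.10 in replicate 3. LHCB1.1 went from 658 and 529 CPM to 81.0 and 109 CPM, at -0.83 ± 0.11 log2 per h, and PSAD-2 had -0.53 ± 0.06.

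The 6 genes not called lower per hour in mock replicates 1 and 2 were PSBS, LHCA5, LHCB7, PSBR, FNR1 and LHCB4.3. PSBS held 712, 759, 805, 679.6 and 777 CPM in replicate 1 and 739, 855, 850.4, 812 and 797 CPM in replicate 2, a slope of 0.01 ± 0.03 log2 per h. LHCB4.3 rose, from 15.2 and 18.4 CPM at 6 h to 26.5 and 27.3 CPM at 10 h (0.17 ± 0.05 log2 per h, edgeR adjusted p = 0.011). It was the 1 gene of the 51 with a slope called above 0 in mock replicates 1 and 2.

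**Figure D4:**
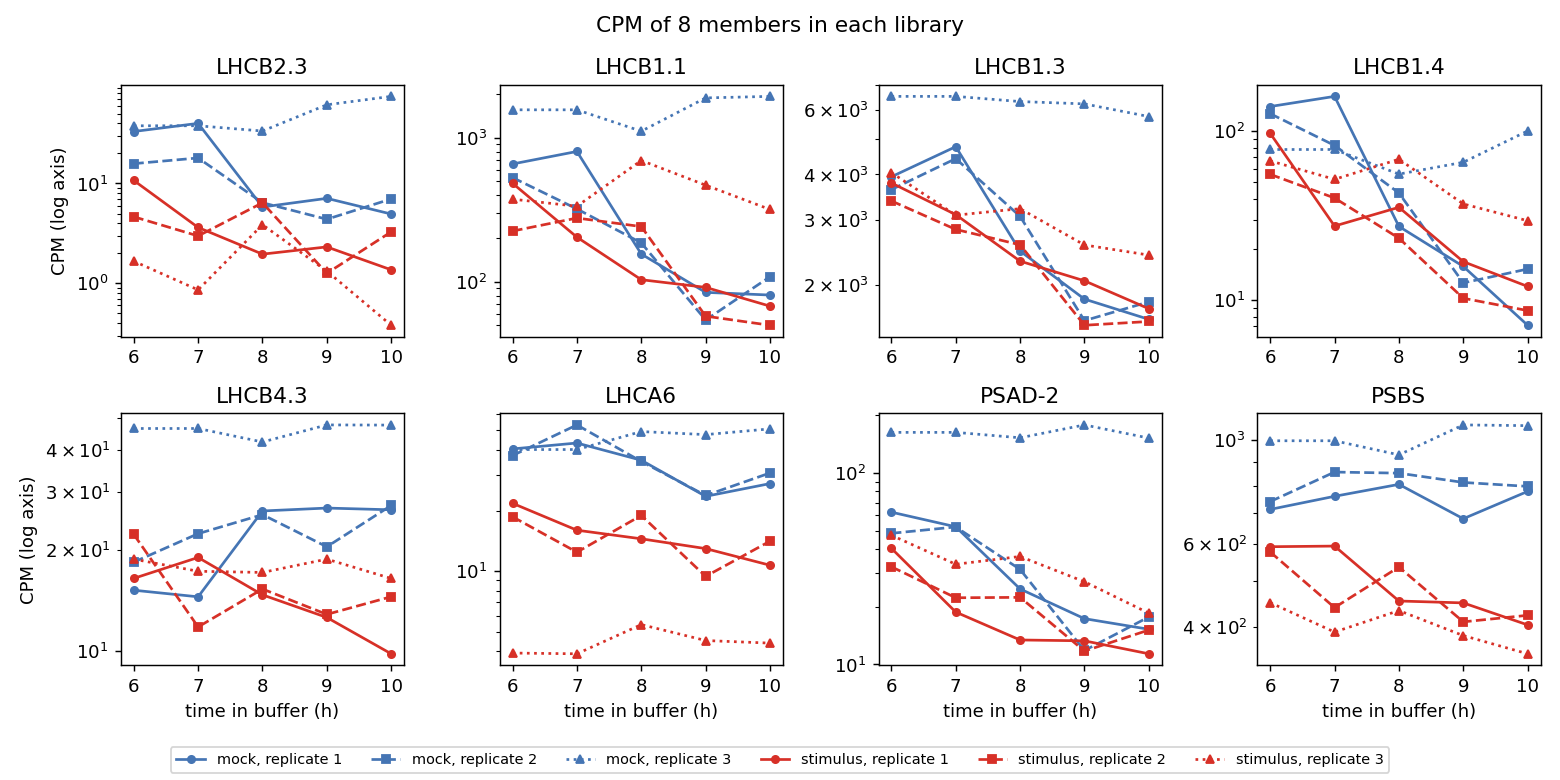
The CPM (log axis) of 8 genes in every library against time in hours, mock in blue and stimulus in red, with 1 line per replicate number. LHCB1.1, LHCB1.3, LHCB1.4 and PSAD-2 fall in mock replicates 1 and 2. In mock replicate 3 LHCB1.3 goes only from 6533 CPM at 6 h to 5756 CPM at 10 h, and the others show no steady fall. PSBS stays between 679.6 and 1078 CPM in mock, and LHCB4.3 rises in mock replicates 1 and 2.

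In stimulus leaves, 50 of the 51 genes fell per hour in replicates 1 and 2 (8.55% of all genes), all but LHCB7, and 8 in replicate 3 (5.84%): LHCB1.3, PSAD-2, PSAF, PSAG, PSBQA, PETC, FNR1 and FNR2. The median slope was -0.39 log2 per h in the antenna and -0.22 in the core in replicates 1 and 2, and -0.11 and -0.10 in replicate 3. In 10 genes the slope was higher in replicate 3 than in replicates 1 and 2 (2.72%). Without the identical columns the 4 counts by set were within 1.5 times of these.

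**Figure D5:**
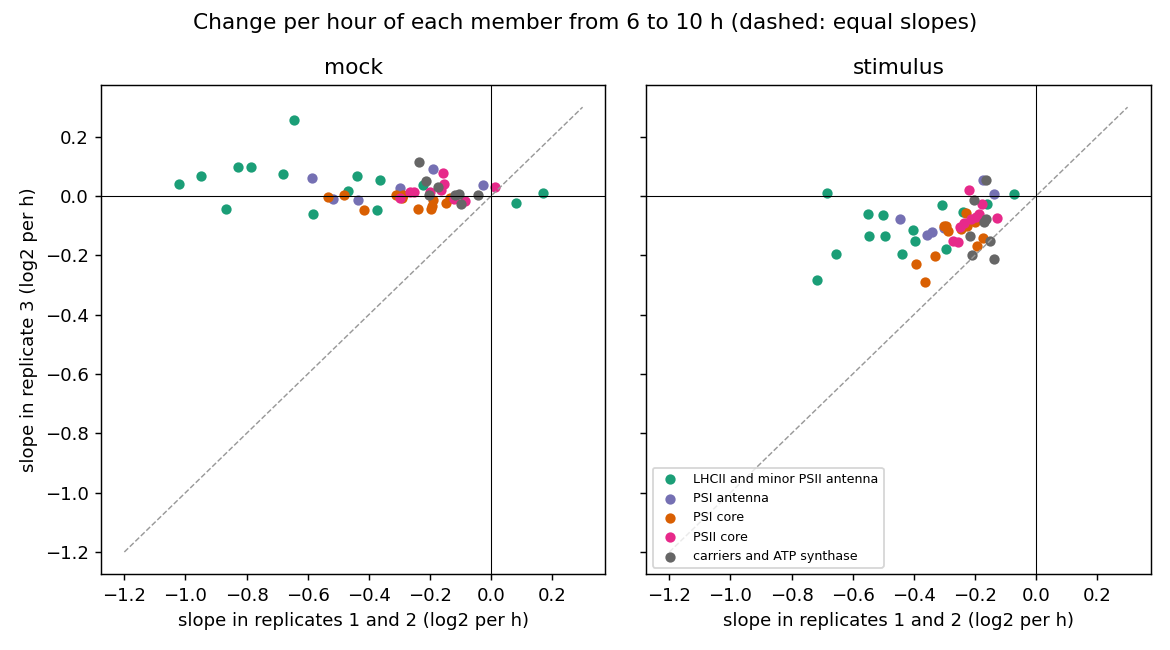
The slope per hour from 6 to 10 h of each of the 51 genes in replicates 1 and 2 (horizontal axis) and in replicate 3 (vertical axis), in log2 per h, for mock (left) and stimulus (right), with role by colour and the line of equal slopes dashed. In mock the points spread from -1.02 to 0.17 along the horizontal axis and from -0.06 to 0.26 along the vertical one.

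The response to the stimulus also differed between the replicate sets. It was called lower in replicates 1 and 2 for 47 genes (32.2% of all genes) and in replicate 3 for 50 (31.2%). The difference itself, replicate 3 minus replicates 1 and 2, was negative in all 51 genes and passed the test in 46, 16 antenna and 30 core, against 25.8% of all genes called lower. By DESeq2 45 passed (22.7% of all genes) and without the identical columns 50 (26.8%). These tests took the hours of a replicate number as separate samples, though they are not independent. Replicate 3 is 1 series per treatment, so counts summed over times leave it 1 total each, with no spread of its own. The split was chosen because replicate 3 stood apart in earlier results of these data. The median log2 fold change was -0.65 in the antenna and -0.56 in the core in replicates 1 and 2, and -1.79 and -1.41 in replicate 3. The median difference was -1.20 log2 units in the antenna and -0.90 in the core. It was largest in LHCB2.3 (-3.45 ± 0.69, edgeR adjusted p = 0.000231), with a response of -1.78 ± 0.36 in replicates 1 and 2 and -5.24 ± 0.57 in replicate 3. LHCA6 followed at -2.15 ± 0.22, from -1.23 to -3.37, and PSAD-2 at -1.79 ± 0.30, from -0.66 to -2.45.

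The smallest differences were those of LHCB1.5 (-0.11 ± 0.35, edgeR adjusted p = 0.821), LHCB1.4 (-0.14 ± 0.57, edgeR adjusted p = 0.863) and PETC (-0.35 ± 0.11, edgeR adjusted p = 0.0143). LHCB1.4 was at -0.73 ± 0.32 in replicates 1 and 2 (edgeR adjusted p = 0.0522) and at -0.86 ± 0.45 in replicate 3 (0.0952), and passed in neither set. The other 3 genes that did not differ past the threshold were LHCB1.2, LHCB2.1 and LHCB2.2, with differences of -1.04, -1.17 and -1.32 and large standard errors.

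Levels set against each other by replicate number differed more in mock than in stimulus. Levels in mock replicate 3 were a median 2.18 times those in mock replicates 1 and 2 over the 51 genes, higher in 50 of them and over 2 times higher in 31. In stimulus the ratio was a median 1.13, higher in 36 and over 2 times higher in 3. The shares of all genes above these ratios were not computed, so these counts have no background beside them. For 37 of the 51 genes every mock library of replicate 3 was above every mock library of replicates 1 and 2, 26 of them core and 11 antenna, against 19.3% of all genes tested. The ratio in mock was greatest in LHCB1.1, at 5.45 times, then LHCB2.1 at 5.39 and PSAD-2 at 4.83. In LHCB7 it was 0.891. LHCA6 and LHCB2.3, in contrast, had lower levels in replicate 3 than in the others among stimulus libraries, at 0.297 and 0.420 times.

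Other genes of the light reactions also had less RNA in stimulus leaves, where 27.0% of all genes tested were called lower. Of 8 further light-reaction genes all 8 fell, with PSB27, a PSII assembly factor, at -1.50 ± 0.23 and PSBP-2 at -1.40 ± 0.26. PSBP-2 was scarce, at a mean of 2.04 CPM in mock and 0.781 CPM in stimulus. All 9 genes listed here for nuclear subunits of the NDH complex fell, at a median of -1.47, led by NdhM at -1.76 ± 0.25 and PnsL2 at -1.65 ± 0.27. The median NDH value in replicate 3 was -2.73, against -0.97 in replicates 1 and 2. Of 10 genes of cyclic flow, state transitions and light stress 8 fell, NPQ1 (violaxanthin de-epoxidase) most at -1.44 ± 0.18 and PGR5-LIKE A next at -1.09 ± 0.12. ELIP1 and ELIP2, which bind pigments under light stress, did not pass, at -0.47 ± 0.48 and 0.33 ± 0.41. All 7 genes of antenna insertion and photosystem assembly fell, CPSRP54, of the chloroplast signal recognition particle, at -1.15 ± 0.13 and CH1, which makes chlorophyll b, at -1.15 ± 0.25.

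Of 10 regulators of nuclear photosynthesis genes 5 fell, against 27.0% of all genes called lower, and 1 rose. GLK1 (GPRI1 in RefSeq), an activator of antenna and chlorophyll synthesis genes, fell most at -2.35 ± 0.13 (edgeR adjusted p = 2.31e-12), with -2.01 in replicates 1 and 2 and -3.07 in replicate 3. GLK2, its partner, had -1.38 ± 0.20. BZR1, a factor of brassinosteroid responses, rose by 0.53 ± 0.09. On counts summed over times, 0 of the further light-reaction genes, 2 of the NDH genes and 4 of the cyclic flow genes passed. So did 2 of the assembly genes and 1 of the regulators. All of these were lower, as were 3.65% of all genes tested on such sums.

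Markers of leaf cell types were read beside these values, where 27.0% of all genes were called lower. All 10 mesophyll genes, of the Calvin cycle, fell (median -1.23), their sum going from 11769 to 27015 CPM in mock to 6395 to 12235 CPM in stimulus, and medians in mock were 13886 CPM in replicates 1 and 2 and 25198 CPM in replicate 3. Of 5 epidermis genes 2 fell, ABCG12 (-0.27) and KCS6 (-0.36), and the list summed to 411 to 642 CPM in mock and 384 to 445 CPM in stimulus. Of 4 guard cell genes 1 fell, KAT1 (-0.32), with sums of 27.0 to 40.3 and 28.6 to 39.7 CPM. Of 5 phloem and bundle sheath genes SUC2, the sucrose loader of companion cells, rose by 1.28 and SWEET11 and SWEET12 fell (-0.68 and -1.50), with sums of 147 to 272 and 208 to 318 CPM. Of 3 trichome genes 1 fell, GL2 (-0.65), and the sums were 5.61 to 14.7 and 4.29 to 8.99 CPM. Of the 4 root genes PRP1, RHS19 and EXPA7 had 2, 4 and 1 counts in all libraries, and PYK10 fell (-2.51), with list sums of 2.93 to 31.8 and 0.598 to 5.31 CPM. The mesophyll genes are photosynthesis genes too, so fewer mesophyll cells and less RNA per cell cannot be told apart by them. The part of shifts between cell types in the fall of the 51 genes was not tested.

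In the 250 bases upstream, CCAATC (either strand) occurred in 7 of 15 PSII antenna genes and 3 of 6 PSI antenna genes, but in 0 of 12 PSI core genes, 1 of 10 PSII core genes and 3 of 8 carriers and ATP synthase genes. It occurred in 10.2% of the upstream regions of 27443 protein-coding nuclear loci. The median average log2 fold change was -1.20 in the 10 antenna genes with it and -1.05 in the 11 without. In the core genes it was -0.93 with and -0.92 without. The G-box CACGTG was found in 10 of 51 genes (19.6%; 6.5% of all loci), with a median of -1.14 against -0.93 in the rest. GATAAG occurred in 12 (23.5%; 12.3% of all), with a median of -0.96 against -0.93. CGTGTG, which BZR1 can bind, occurred in 3 (5.9%; 5.4% of all), CGTGCG, another BZR1 motif, in 0 (1.6% of all), and the auxin response motif TGTCTC in 5 (9.8%; 10.9% of all). Medians with and without the motif were -0.81 and -0.95 for CGTGTG, and -1.13 and -0.93 for TGTCTC. Matches of different motifs overlapped in 1 of the 51 genes, and a match describes letters in the window only. Unlike the 3 windows printed above, many of the 51 overlapped another annotated locus, among them those of LHCB3, LHCB6, LHCA1, PSAD-2 and FNR1.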

How the data were processed

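The authors deposited 1 table of raw read counts, with 38194 loci in rows and 30 libraries in columns per the file headers, made from stranded libraries depleted of rRNA. The submitters' processing notes name BWA and the TAIR10 build. How reads were counted is not given in the sources used here. Names, roles and upstream sequences were taken by locus identifier from RefSeq TAIR10.1, another release of the assembly, in which 37751 of the 38194 loci were found. PSAG and PSAH-1, with 61.4% and 53.3% of the exonic length opposite another locus, held 325 and 159 CPM in mock while those partners held 0.0651 and 0 CPM, so counting kept the strands apart there. LHCB1.5, the most covered member (100%), held 685 CPM in mock, and its partners AT2G34410 and AT2G08665 held 26.2 and 1.77 CPM.

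The 51 genes, the role groups and the other lists were chosen with earlier results of these data known. The main test was edgeR 4.0.16 under R 4.3.3 (filterByExpr, TMM scaling, quasi-likelihood F tests, Benjamini-Hochberg adjustment over all genes tested, threshold 0.05) in 1 model with a mean per group, over all 30 columns. The contrasts subtracted mock from stimulus at each of the 5 times and on average, and linear slopes per hour. The replicate sets (3 against 1 and 2) were compared in a model with a term for set 3 and its interaction with treatment. Standard errors were derived from the fold change and its F statistic. CPM are scaled by TMM. Fold changes are log2. Alternatives were DESeq2 1.42.0, median-ratio size factors, other count filters, leaving out rRNA, tRNA and organelle loci, the identical columns or each library left out, a replicate block, replicates 1 and 2 alone, LHCB1 and LHCB2 loci summed, and counts summed over times. Summed counts with a replicate block, and slopes by replicate set, were added after seeing the data. The edgeR fits were run on simulated counts with set changes. The simulated libraries were independent, with no shift of replicate 3, so this check does not bear on spread shared over hours. The genes described in full were, in each role, the 2 lowest and 2 highest average fold changes, any gene called higher, and the 3 largest and 3 smallest differences between replicate sets; from other lists up to 2 called genes each way. Genes beyond these, and the 8 of the plot of CPM, were added after their values were seen.

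Replicate numbers served as pairs only in the fits with a replicate block and in ratios within 1 time and number. The main test used no pairing. Deviations from group means correlated at 0.158 to 0.486 in all 15 mock and stimulus pairs of 1 number and time. In 9 of the 15 the stimulus library correlated best with its own number, among them all those of replicate 3. At 7 h the stimulus libraries of replicates 1 and 2 each correlated best with the other number. Since replicate 3 stood apart, the positive values cannot show that replicates 1 and 2 are paired by number. The labels call the samples biological replicates without naming separate cohorts of plants, and the p-values cover only how much these libraries vary, which may be technical. A 5 h time point was not analysed here.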

Additional observations from a re-analysis of the deposited data

Results flagged for a closer look

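The response to the stimulus differed between replicate sets in 46 of the 51 genes, by a test of the interaction of treatment with replicate set (edgeR's quasi-likelihood test, adjusted p under 0.05), all with a lower value in replicate 3. It was the same in direction for all 51. Among all genes tested, 25.8% were called lower by the same test. The split was chosen because replicate 3 stood apart in earlier results of these data. The hours of a replicate number are not independent samples, so the spread between series like replicate 3 was not measured. The shares of plastid-encoded counts, 0.556 to 0.637% in mock replicate 3 and 1.94 to 3.09% in the other mock libraries, moved with the same split, and their part was not tested. The labels give no date or batch for the sets, so what else differed between them cannot be told apart from the replicate number.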

How the results depend on the processing

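The average fall kept its direction in all 51 genes under the alternatives run. Its count of genes past the threshold was 46 to 51 with each library left out, but 7 with counts summed over times and 12 with a replicate block on those sums. The hourly counts depended most on the setting. With a replicate block they were 7, 46, 26, 38 and 43 at 6, 7, 8, 9 and 10 h, and in replicates 1 and 2 alone 18, 48, 35, 30 and 37. DESeq2 called 1, 22, 9, 23 and 32 (5.95, 9.94, 8.62, 10.5 and 11.3% of all genes). In the 6 libraries of 1 time alone, 0 were called at 8 h (edgeR, 1.54% of all genes; 28 at an unadjusted p under 0.05, or 54.9%, against 23.1% of all genes), 3 at 9 h (3.47%) and 6 at 10 h (4.5%). A filter of 1 CPM in 3 libraries gave 1 at 6 h, and leaving out the identical columns gave 7 at 7 h. With each library left out the counts were 0 to 2, 4 to 27, 2 to 8, 3 to 21 and 3 to 32. Leaving out 1 library moved a count by over 1.5 times as follows. At 6 h it was 2 without mock 10 h replicate 3, and 1 without mock 9 h replicate 1, mock 9 h replicate 3, stimulus 6 h replicate 1 or stimulus 7 h replicate 1 or 3. At 7 h it was 9 and 7 without mock 7 h replicates 2 and 3, 6 and 4 without stimulus 7 h replicates 2 and 3, and 27 and 26 without mock replicate 3 of 9 and 10 h. At 8 h it was 3 without mock 8 h replicate 3 or stimulus 8 h replicate 1, and 2 without stimulus 8 h replicate 3. At 9 h it was 20 and 3 without mock 9 h replicates 1 and 3, 8, 4 and 5 without stimulus 9 h replicates 1, 2 and 3, and 21 without mock 10 h replicate 3. At 10 h it was 32 and 3 without mock replicate 3 of 9 and 10 h, and 6, 10 and 8 without stimulus 10 h replicates 1, 2 and 3. The cause was not tested.

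Slopes that differed between treatments numbered 0, and 4 in replicates 1 and 2 alone (7.71% of all genes); 0 to 0 with each library left out. The difference between replicate sets was called in 42 to 49 genes with each library left out. It was called in 45 by DESeq2 (22.7% of all genes) and in 50 without the identical columns (26.8%). The antenna median ranged from -1.11 to -0.87 and the core median from -0.97 to -0.82 with each library left out, and they were -0.61 and -0.55 in replicates 1 and 2 alone. Of 897 single values recomputed for 22 genes, 844 kept direction and call, 53 lost the call and none changed direction. The replicate block changed no other call on the average. Depth bears most on LHCB2.3, which held 7 counts in its lowest library, while the other 50 members held at least 66.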

Other observations

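The balance between antenna and core RNA shifted with time in replicates 1 and 2, in mock and in stimulus leaves. The log2 ratio of summed antenna to summed core CPM at 6, 7, 8, 9 and 10 h was 0.33, 0.54, -0.41, -0.54 and -0.70 in mock replicate 1 and 0.29, -0.03, -0.23, -0.84 and -0.58 in mock replicate 2. In mock replicate 3 it lay between -0.09 and 0.10. In stimulus it was 0.34, -0.05, -0.03, -0.20 and -0.26 in replicate 1 and -0.03, 0.13, -0.08, -0.47 and -0.45 in replicate 2. Stimulus replicate 3 ranged from -0.08 to 0.21. At 8, 9 and 10 h the ratio in mock was below that in stimulus in both replicates 1 and 2. LHCB1.3 alone held 1611 of the 4270 CPM of the antenna sum in mock replicate 1 at 10 h.

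LHCB1.1 and LHCB1.2, neighbours on 1 strand, had different levels by set: in mock at 10 h LHCB1.1 held 81.0, 109 and 1937 CPM in replicates 1, 2 and 3, and LHCB1.2 held 102, 150.3 and 656 CPM. At 6 h they held 658, 529 and 1562 CPM, and 1023, 904 and 704 CPM.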
